A study of Mus musculus with 3 samples.

Results

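Messages of 50 DNA damage and repair genes were followed in RNA that came down with an ezrin antibody or with normal mouse IgG. The genes were taken from a fixed list of symbols, and all 50 were found among the 41743 symbols of the count tables. All 50 also passed the filter on low counts, so none of the members was left untested. The cells were K7M2, a mouse osteosarcoma line labelled as osteoblastic, and the design text calls the derivative used here COL3A. CRISPR/Cas9 had removed the endogenous ezrin, and a stable transfection of a cDNA had restored it as the T567A mutant, in which threonine is replaced by alanine. The labels do not say whether the line is 1 clone or which promoter drives the cDNA, and no treatment was given. Every library, IgG included, came from this genotype. Immunoprecipitation with anti-ezrin gave 2 libraries (ezrin replicates 1 and 2) and immunoprecipitation with IgG gave 1. RNA was isolated with a commercial immunoprecipitation kit. The labels name both polyA RNA and a kit that depletes ribosomal RNA, and which of them set the RNA content is not settled. Paired reads of 150 bases were sequenced. An input library was not analysed here, so each value compares a message's share of the ezrin precipitate with its share of the IgG precipitate.

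DNA repair is a set of partly separate routes. Kinases and adaptor proteins signal damage, homologous recombination and end joining mend double-strand breaks, and base excision repair removes small base lesions. Mismatch repair corrects replication errors, the Fanconi anaemia pathway unhooks crosslinks, and nucleotide excision repair cuts out bulky adducts such as those made by ultraviolet light. Many of these proteins act in fixed pairs or complexes, so the messages of partners can be set side by side. The values below are levels of messages in a precipitate and say nothing of repair activity or of protein.

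Total counts were 19676595 and 16196329 in the ezrin libraries and 10124580 in the IgG library. RNA composition differed between the groups: reads at the ribosomal RNA remnants Gm26917 and Gm42418 held 0.122% and 0.198% of ezrin counts and 16.5% of IgG counts. Protein-coding genes held 97.5% and 98.1% against 74.6%. Ezrin's own message, Ezr, for which the counts cannot separate transgene and gene, stood at 349 and 350.5 CPM against 155 CPM. CPM are counts scaled to a common library size. Of 11 osteoblast lineage markers, 6 had at least 10 counts in every library. They were led by Col1a2, and the list summed to 4624 and 3832 CPM against 2089 CPM. Of the 6, Alpl was low, with 28 and 17 counts against 33. The other markers of the list, Sp7, Ibsp, Bglap, Bglap2 and Dmp1, had 0 to 5 counts. Of 6 macrophage markers, only Csf1r had 10 counts in every library, and it had many (ezrin 19345 and 14596, IgG 11804), whereas Adgre1 and Ptprc were at 0. Endothelial, epithelial, adipocyte and skeletal muscle lists summed to at most 3.03 CPM in any library, with Epcam, Adipoq and Myog at 0 throughout. The list for B cells and plasma cells summed to 29.8 to 33.1 CPM, nearly all of it Sdc1, with Ighm and Igkc at 0.

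More than 1 in 2 of the 50 listed repair messages were higher in the ezrin precipitate than in IgG. Tested in edgeR by quasi-likelihood, with Benjamini-Hochberg adjustment over all 12478 genes that passed the filter, 26 of 50 members were higher, 2 were lower and 22 were not called. Over all genes tested, 36.4% were called, 19.0% higher and 17.4% lower. Of 127 further repair genes, 26.0% were higher and 4.72% lower, and both lists were drawn up with earlier results of these data known. The counts do not separate how many cells held a message from how much each cell held. A log2 fold of at least 1, which is 2-fold or more, was reached by 19 of the higher members and both lower ones, beside 9.83% and 9.54% of all genes. The median log2 fold of the 50 members was 0.76, and the median over all genes tested was -0.02. The highest members were Fanci, Xrcc6, Ddb1 and Msh6, at log2 folds of 1.53 to 1.91, and the lowest were Ercc1 (-1.43) and Ogg1 (-1.07). The ribosomal RNA remnants differed between the groups, and a separate fit on protein-coding genes alone also called 26 members higher and 2 lower, beside 20.0% and 17.1% of its 11373 genes. In the fit on all genes, 20.4% of the protein-coding genes were higher and 15.7% lower. The part of the remnants in single values was not tested.

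**Figure D1:**
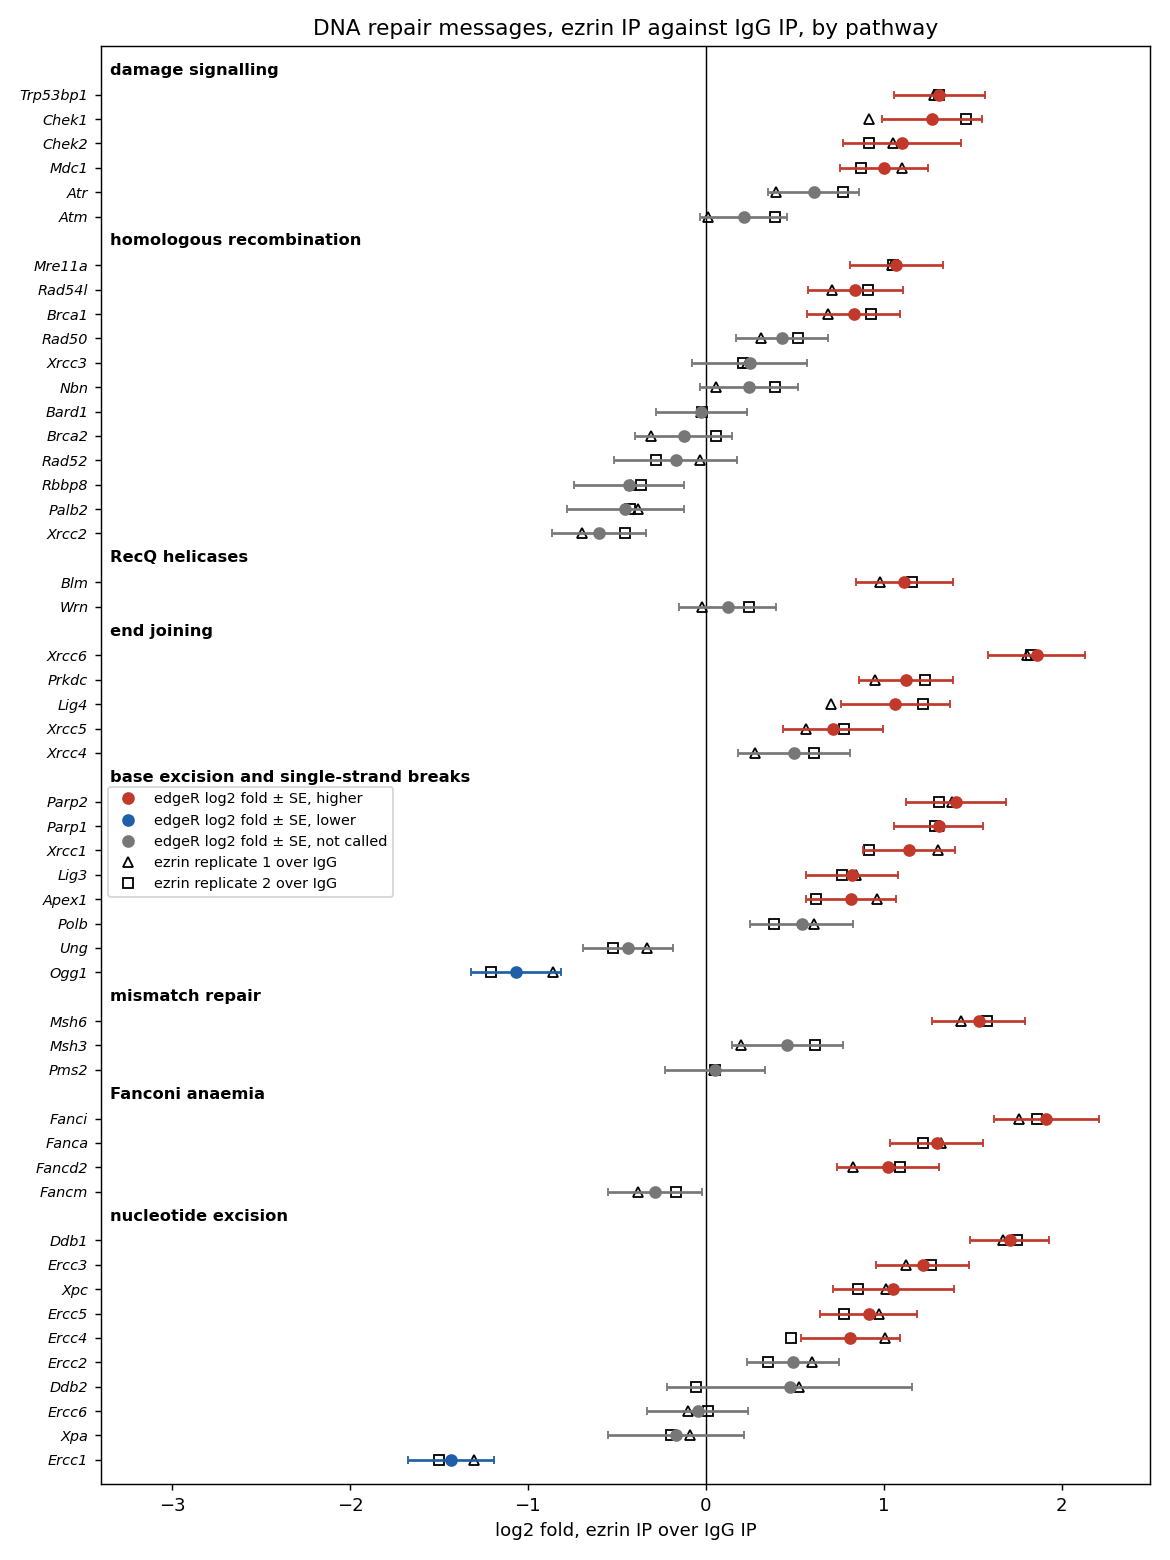
Log2 fold of ezrin IP over IgG IP for the 50 members, grouped by pathway. Filled points are edgeR estimates with their SE, and open triangles and squares are the log2 ratios of ezrin replicates 1 and 2 to the single IgG library, with 1 CPM added to both. The open symbols of all 26 higher members lie right of 0, and those of Ercc1 and Ogg1 lie left of it.

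Both ezrin libraries lay on one side of IgG for most members. Each of the 26 higher members was above IgG in both ezrin libraries, and both lower members were below it in both. Of the 22 members not called, 10 were above IgG in both libraries, 8 below in both and 4 split. In all, 36 members had both ezrin libraries above IgG and 10 had both below, where 42.6% and 44.3% of all genes tested did so. The IgG library is shared by both ratios, so their agreement does not measure the spread of IgG. Separate cultures for the ezrin libraries are not mentioned in the labels. The p-values therefore rest on a spread that comes only from the 2 ezrin libraries, pooled over genes, and that may be technical. IgG, with 1 library, adds no spread of its own.

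Members with higher levels had higher folds, whereas fold and gene length were nearly unrelated. Across the 50 members the log2 fold and the average log2 CPM had a positive correlation (Pearson r = 0.47, Spearman rho = 0.56), a description over genes that share the same 3 libraries. Over all genes tested the same r was 0.25. In the IgG library, members called higher had a median of 27.6 CPM and members not called a median of 14.5 CPM. The ezrin libraries that set the fold also enter the average level. Between the lower and upper quartile of the members' levels lay 24 members, of which 11 were higher and 2 lower. Of the 3922 genes tested within the same range of levels, 37.1% were called, 19.8% higher and 17.4% lower. With log2 gene length, taken from the deposited count over RPKM (reads per kilobase and per library size), the members' r was 0.05. By length, 8 of the 17 shortest members, 11 of the 17 in the middle and 7 of the 16 longest were higher. Both lower members were among the 17 shortest.

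**Figure D2:**
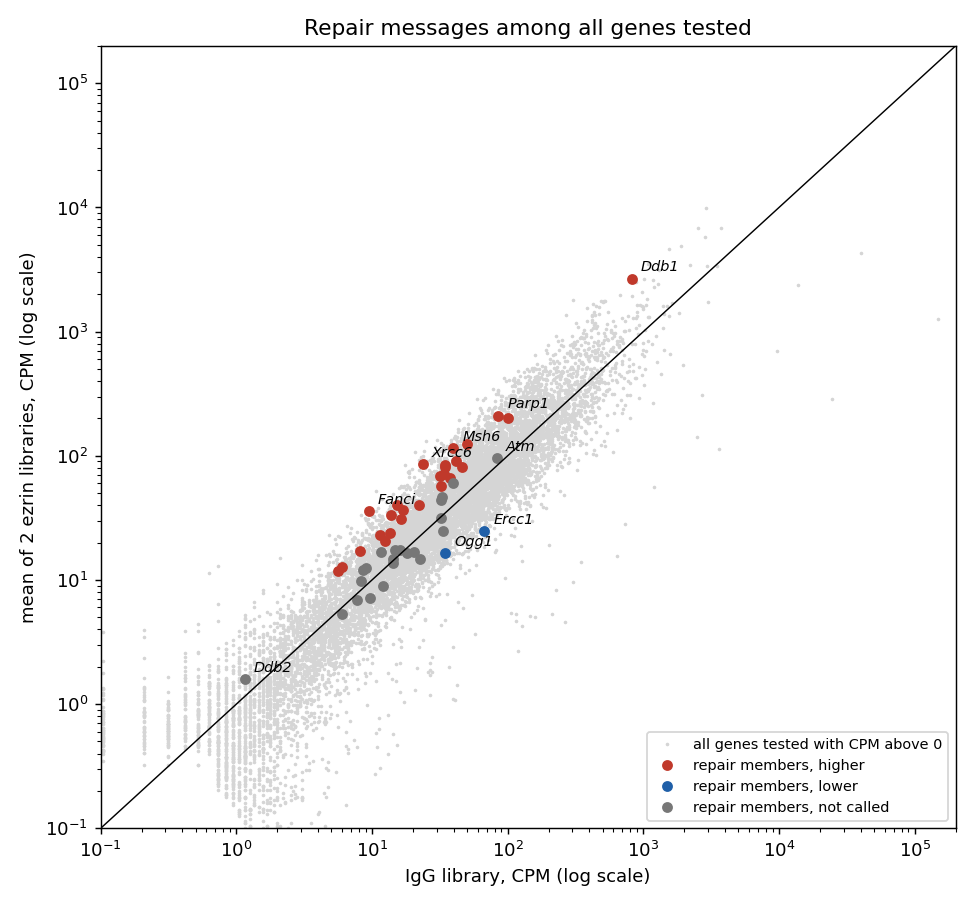
Mean CPM of the 2 ezrin libraries against CPM of the IgG library, both on log axes, with a line of equality. Grey points are all genes tested with a value above 0, and coloured points are the 50 members. Ddb1 stands far above the other members on both axes, and Ercc1 and Ogg1 lie below the line.

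**Figure D3:**
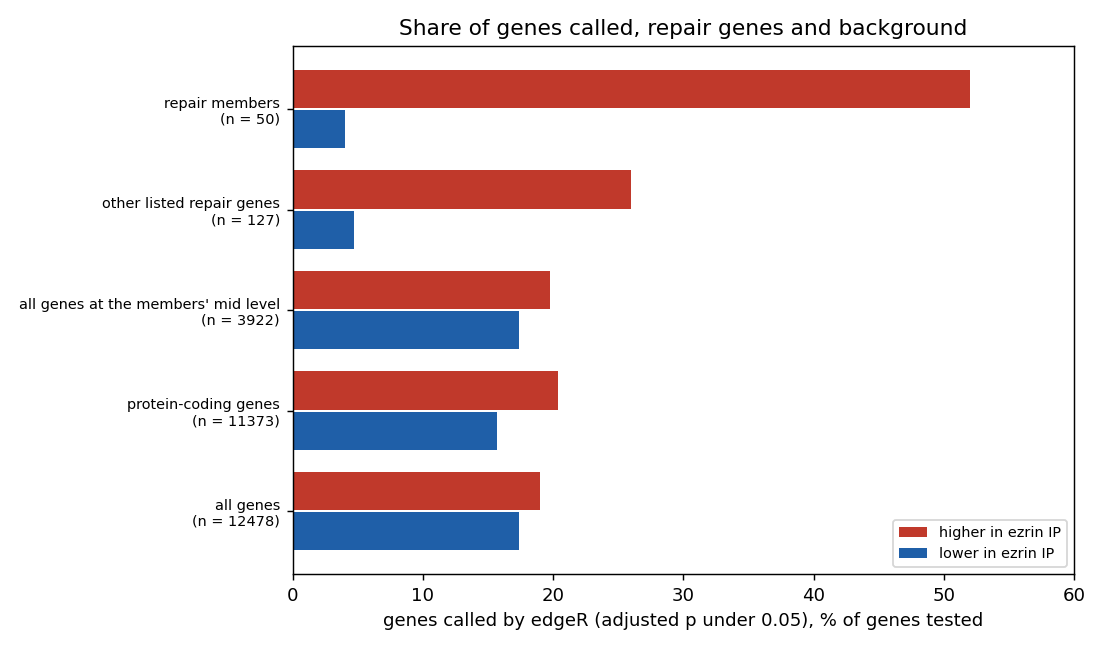
Share of genes called higher (red) and lower (blue) by edgeR at an adjusted p under 0.05, in % of genes tested, for the 50 members, the 127 tested genes of the longer repair list and 3 backgrounds. Higher calls made up 52.0% of members and 26.0% of the longer list, beside 19.0% of all genes.

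Damage signalling held 4 higher members of 6, Trp53bp1, Chek1, Chek2 and Mdc1, while the apical kinases Atm and Atr were not called. The median log2 fold of the 6 was 1.05. Of all genes tested, 19.0% were higher and 17.4% lower, and whether any pathway differs from them was not tested. ATM and ATR are the kinases that start the response, CHEK1 and CHEK2 are the checkpoint kinases they activate, and MDC1 and 53BP1 are scaffolds that gather at breaks. Trp53bp1, the message of 53BP1, was at 124 and 126 CPM in ezrin replicates 1 and 2 and 50.3 CPM in IgG. Both ezrin values were over 2 times the IgG value, and the log2 fold was 1.31 (SE 0.26, edgeR adjusted p = 5.11e-06). Mdc1, the most abundant of the group per length at 24.7 and 21.6 RPKM against 8.86 RPKM, was at 219 and 186 CPM against 101 CPM (2.0-fold higher, SE 0.25 on the log2 scale, edgeR adjusted p = 3.71e-04). The ezrin libraries again lay well apart from IgG. Chek1 was at 27.0 and 39.8 CPM against 13.8 CPM. It was higher in both ezrin libraries (log2 fold 1.27, SE 0.28, edgeR adjusted p = 5.48e-05), and of the 50 members it exceeded ezrin replicate 1 most in ezrin replicate 2. Chek2 was the rarest of the 4, with 270 and 204 counts against 57, which gave 13.5 and 12.2 CPM against 5.96 CPM. Its log2 fold was 1.10 (SE 0.33, edgeR adjusted p = 0.00426), and with DESeq2 the call was lost (adjusted p = 0.0788).

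Atm and Atr, by contrast, were close to IgG or just short of a call. Atm had 83.5 and 109 CPM against 82.9 CPM (log2 fold 0.21, SE 0.24, edgeR adjusted p = 0.519), so ezrin replicate 1 and IgG nearly coincided. Atr had 52.1 and 68.0 CPM against 39.4 CPM (log2 fold 0.61, SE 0.26, edgeR adjusted p = 0.0505). It passed in 5 of 9 alternative analyses, over which the adjusted p ran from 0.0179 to 0.132. Whether the kinases differ from their substrates was not tested. Among 22 further signalling genes, 4 were higher and 4 lower. This was 18.2% each way, near the 19.0% higher and 17.4% lower of all genes. The median of the 22 was -0.11. Higher were Timeless (log2 fold 1.41), a fork protection factor, Tti1 (1.18), which stabilises kinases of the ATM family, Clspn (1.09), the adaptor of CHEK1, and Tipin (0.82). Lower were the damage histone H2ax (-1.50), the ubiquitin ligase Rnf168 (-0.84), the mitotic inhibitor Wee1 (-0.80) and Babam1 (-0.62).

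Homologous recombination had 3 higher members of 12 and none lower, beside 19.0% higher and 17.4% lower of all genes tested. The median log2 fold of the 12 was 0.11, beside -0.02 over all genes tested. Whether the route differs from all genes was not tested. Without ezrin replicate 2 the median of the 12 was 0.014, and without replicate 1 it was 0.16. This route resects a broken end and copies the missing sequence from a sister chromatid. Mre11a, the nuclease of the MRN complex that begins resection, was at 71.0 and 71.4 CPM against 33.9 CPM. The ezrin libraries nearly coincided at about 2 times IgG (log2 fold 1.07, SE 0.26, edgeR adjusted p = 3.26e-04). Rad54l, a motor protein that assists strand invasion, had a log2 fold of 0.84 (edgeR adjusted p = 0.00681), and Brca1, which promotes resection, had 0.83 (edgeR adjusted p = 0.0065).

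The other 9 members of the route were not called. Rad50 (log2 fold 0.43) and Nbn (0.24), the remaining subunits of MRN, were on the higher side in both ezrin libraries. Bard1, whose protein pairs with BRCA1, was at 31.3 and 31.5 CPM against 32.0 CPM, so all 3 libraries were alike. Its log2 fold was -0.02 (SE 0.25, edgeR adjusted p = 0.951). Brca2 (-0.12), which loads the recombinase, and Palb2 (-0.45), which joins BRCA2 to BRCA1, were not called. Neither were Rad52 (-0.17), an annealing factor, Rbbp8 (-0.43), the resection factor CtIP, Xrcc3 (0.25) and Xrcc2 (-0.60). Xrcc2 came nearest to the lower side, at 13.5 and 16.2 CPM against 22.5 CPM (edgeR adjusted p = 0.0597), and in edgeR it was called lower when genes under a mean of 10 CPM were left out (adjusted p = 0.0286, range over alternatives up to 0.596). The median average level of the 12 was a log2 CPM of 4.10, below the 4.78 of all members. Of 16 further genes of the route, 4 were higher and 1 lower, with a median of 0.44. Rpa1 (1.19) and Rpa2 (0.72), which coat single strands, the resection nuclease Dna2 (1.12) and Rad54b (0.86) were higher, and Sfr1 (-0.96), a partner of the recombinase, was lower.

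Of the 2 RecQ helicases among the members, Blm was higher and Wrn was not called. These enzymes unwind recombination intermediates and stalled forks, and their loss causes Bloom and Werner syndromes. Blm was at 34.4 and 39.0 CPM against 16.9 CPM, with both ezrin libraries at about 2 times IgG (log2 fold 1.12, SE 0.27, edgeR adjusted p = 3.4e-04). Wrn was at 15.7 and 19.1 CPM against 16.0 CPM, so the ezrin libraries lay on both sides of IgG (log2 fold 0.12, SE 0.27, edgeR adjusted p = 0.753). Of 7 further helicase and partner genes, 4 were higher (57.1%, beside 19.0% of all genes) and none lower. The 4 were Recql (1.17), Recql5 (1.13), Recql4 (0.80) and Top3b (0.67).

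End joining had 4 higher members of 5, beside 19.0% of all genes tested. The median log2 fold of the 5 was 1.07, and it was 0.70 without ezrin replicate 2 and 1.25 without replicate 1. The Ku ring of XRCC5 and XRCC6 slides onto a broken end and recruits the kinase PRKDC, and LIG4 with XRCC4 seals the break. Xrcc6, which encodes Ku70, was at 85.4 and 86.9 CPM against 23.7 CPM. Both ezrin libraries stood more than 3 times above IgG (log2 fold 1.86, SE 0.27, edgeR adjusted p = 5.56e-10), and in coordinates the gene overlaps Desi1, which was lower (-0.64). Its partner Xrcc5, which encodes Ku80, was higher by less, at 18.9 and 22.0 CPM against 12.4 CPM. The log2 fold of Xrcc5 was 0.72 (SE 0.28, edgeR adjusted p = 0.0337), and the call was lost with DESeq2 (adjusted p = 0.185) and when genes under a mean of 10 CPM were left out. Prkdc, the catalytic subunit of DNA-PK, was at 61.8 and 75.3 CPM against 31.5 CPM (log2 fold 1.12, SE 0.26, edgeR adjusted p = 1.77e-04). Lig4 was at 13.9 and 20.3 CPM against 8.15 CPM (log2 fold 1.07, SE 0.30, edgeR adjusted p = 0.00245), and DESeq2 did not call it (adjusted p = 0.0697). All values of these 3 genes were above IgG. Xrcc4 was not called (log2 fold 0.50, edgeR adjusted p = 0.213). Of 9 further end processing genes, 3 were higher (33.3%, beside 19.0% of all genes) and none lower. Among the 3 were Tdp2 (1.13), which removes trapped topoisomerase, and Tdp1 (0.78).

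**Figure D4:**
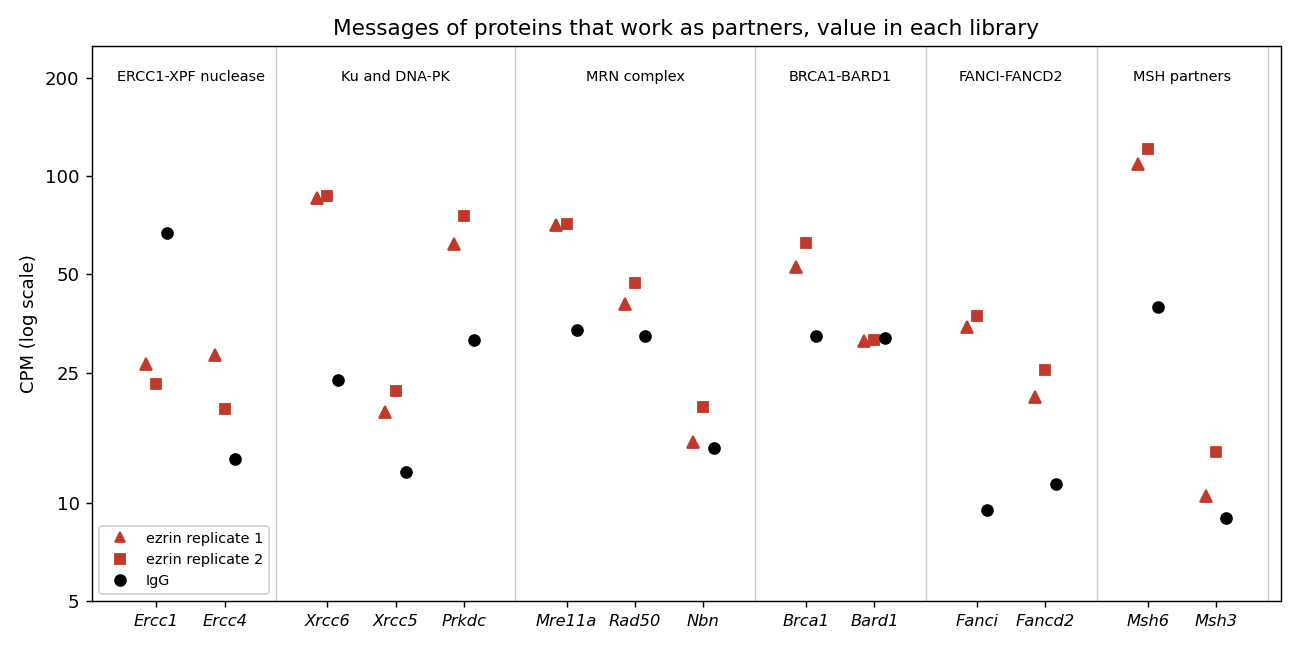
CPM on a log axis in each library for messages whose proteins act as partners. Red triangles and squares are ezrin replicates 1 and 2 and black circles are IgG. Ercc1 is the only gene shown with IgG above both ezrin libraries by more than 2-fold, while its partner Ercc4 has IgG below both. The 3 values of Bard1 nearly coincide.

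In base excision and single-strand break repair the strand break sensors, the scaffold, its ligase and the abasic endonuclease were higher, and neither of the 2 DNA glycosylases was. Of 8 members, 5 were higher and 1 lower, beside 19.0% and 17.4% of all genes tested. The median log2 fold of the 8 was 0.82. Parp1, whose product binds nicks and builds poly(ADP-ribose), was at 212 and 209 CPM against 85.0 CPM. The ezrin libraries differed little from each other and were over 2 times IgG (log2 fold 1.31, SE 0.25, edgeR adjusted p = 3.14e-06). Its relative Parp2 had nearly the same fold, with 41.5 and 39.4 CPM against 15.3 CPM (log2 fold 1.41, SE 0.28, edgeR adjusted p = 6.38e-06). Xrcc1, the scaffold that PARP activity recruits, was at 104 and 79.3 CPM against 41.5 CPM. It was higher in both ezrin libraries (log2 fold 1.14, SE 0.26, edgeR adjusted p = 8.81e-05), as was Lig3, the ligase bound to XRCC1 (log2 fold 0.82, edgeR adjusted p = 0.00646). Apex1, the endonuclease that cuts at abasic sites, was the most abundant member of the pathway per length, at 53.7 and 43.3 RPKM against 21.1 RPKM. Its counts came to 90.9 and 71.5 CPM against 46.2 CPM, above IgG in both libraries (log2 fold 0.82, SE 0.25, edgeR adjusted p = 0.00593).

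The glycosylases among the members, which remove the damaged base in the first step, had log2 folds below 0. Ogg1, which removes oxidised guanine, was at 18.5 and 14.4 CPM in the ezrin libraries and 34.5 CPM in IgG. Both ezrin values were below IgG (log2 fold -1.07, SE 0.25, 2.09-fold lower, edgeR adjusted p = 1.98e-04). With limma on RPKM the call was lost (adjusted p up to 0.0578). Ogg1 (chromosome 6, 113326972 to 113334877, GRCm38) overlaps Camk1 by 754 bases in RefSeq coordinates, and the sources used here do not give how reads in such stretches were counted. Camk1 was not called (log2 fold 0.07). Ung, which removes uracil, was not called, with 26.4 and 23.0 CPM against 33.4 CPM (log2 fold -0.44, edgeR adjusted p = 0.168). The gap-filling polymerase Polb was not called either (0.54, edgeR adjusted p = 0.131). Some glycosylases of the longer list were higher and others were not called. Of 14 further genes tested 7 were higher and none lower, with a median of 0.66, and 4 of the 7 were glycosylases: Mbd4 (1.56), Neil3 (1.47), Neil1 (1.45) and Nthl1 (1.35). Mbd4, Neil1 and Nthl1 were rare, with 13, 13 and 20 counts in IgG. The ligase Lig1 (1.38), the flap nuclease Fen1 (1.27) and Parg (0.64) were the other 3. The glycosylases Mutyh (0.68), Tdg (0.21), Mpg (-0.20) and Smug1 (-0.50) were not called, and Neil2 had no count in any library.

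Mismatch repair had 1 higher member of 3, beside 19.0% of all genes tested. Msh6, which with its partner recognises single mispairs, was at 109 and 121 CPM against 39.6 CPM. Both ezrin libraries were well above IgG (log2 fold 1.53, SE 0.26, edgeR adjusted p = 1.29e-07). Msh3, which takes the place of MSH6 to recognise larger loops, was not called, with 10.5 and 14.3 CPM against 8.99 CPM (log2 fold 0.46, edgeR adjusted p = 0.246). Pms2, the nicking subunit, was at 14.8 and 14.9 CPM against 14.3 CPM, so its 3 values were alike (log2 fold 0.05, SE 0.28, edgeR adjusted p = 0.904). Of 13 further genes tested, 3 were higher (23.1%, beside 19.0% of all genes) and none lower. The higher genes were the catalytic polymerase subunit Pold1 (1.44), Pms1 (1.28) and the clamp loader subunit Rfc3 (0.64). Msh4, a meiotic gene, fell under the filter with 7 and 4 counts in the ezrin libraries and 0 in IgG.

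The Fanconi anaemia pathway had 3 higher members of 4, beside 19.0% of all genes tested. Among the 3 was Fanci, the member with the highest log2 fold of all 50. FANCI and FANCD2 form the clamp that is ubiquitinated at a crosslink, FANCA belongs to the core complex that does this, and FANCM brings the complex to DNA. Fanci was at 34.6 and 37.1 CPM against 9.51 CPM, which made it 3.77-fold higher. The ezrin libraries were close together and far from IgG (log2 fold 1.91, SE 0.29, edgeR adjusted p = 3.25e-09). In coordinates Fanci overlaps Polg, which was not called (0.28). Fancd2, its partner, was at 21.0 and 25.4 CPM against 11.4 CPM, which edgeR called higher (log2 fold 1.02, SE 0.29, adjusted p = 0.00184). Fanca was at 87.7 and 81.9 CPM against 34.5 CPM (log2 fold 1.30, SE 0.26, edgeR adjusted p = 1.04e-05). Both were higher in each ezrin library. Fancm was not called, with 15.4 and 18.1 CPM against 20.4 CPM (log2 fold -0.29, edgeR adjusted p = 0.417). Of 17 further genes, 3 were higher (17.6%, beside 19.0% of all genes) and 1 lower (5.88%, beside 17.4%). Higher were Fancl (1.28), the ubiquitin ligase of the core complex, Fancb (1.09) and the helicase Brip1 (0.69). Faap20 (-0.84) was lower.

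Among the 50 members, nucleotide excision repair held both the most abundant message per length and the lowest fold. Of 10 members, 5 were higher and 1 lower, beside 19.0% and 17.4% of all genes tested. The median log2 fold of the 10 was 0.65. Ddb1, which links DNA damage recognition to a cullin ubiquitin ligase (chromosome 19, 10605568 to 10629828, GRCm38), was at 2604 and 2749.9 CPM against 819 CPM. Both ezrin libraries were over 3 times IgG (log2 fold 1.71, SE 0.22, edgeR adjusted p = 1.35e-12). Per length it reached 341 and 369.5 RPKM against 82.9 RPKM, rank 82 and 75 of all symbols in the ezrin libraries and 305 in IgG. The RPKM carry no TMM scaling, and in them the gap to IgG was wider than in CPM. Ddb1 held 54.3% and 55.4% of all counts on the 50 members in the ezrin libraries and 38.8% in IgG. Without Ddb1 the members together made up 0.223% and 0.230% of ezrin counts and 0.122% of IgG counts. These are shares of total counts, in which the ribosomal RNA remnants held 16.5% of IgG. Protein-coding genes held 97.5% and 98.1% of ezrin counts and 74.6% of IgG counts, so on protein-coding counts the gap would be smaller. Ddb2, the damage-binding partner of DDB1, was the rarest member, with 42 and 18 counts against 11, and edgeR did not call it (log2 fold 0.47, SE 0.69, adjusted p = 0.624).

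Ercc3, the XPB helicase of the transcription factor TFIIH, was at 76.6 and 84.5 CPM against 34.6 CPM. It was higher in both ezrin libraries (log2 fold 1.22, SE 0.26, edgeR adjusted p = 3.57e-05), whereas Ercc2, the XPD helicase of the same factor, was not called (0.49, edgeR adjusted p = 0.124). Xpc, the general damage sensor, was at 12.4 and 11.0 CPM against 5.64 CPM (log2 fold 1.05, SE 0.34, edgeR adjusted p = 0.00784), a call that DESeq2 did not make (adjusted p = 0.111). Ercc5, the XPG nuclease that cuts on one side of the lesion, was also higher (log2 fold 0.92, edgeR adjusted p = 0.00387). Xpa (-0.17), which organises the opened DNA, and Ercc6 (-0.04), which acts at stalled RNA polymerase, were not called.

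The nuclease that cuts on the other side is a pair of ERCC1 and ERCC4 (XPF), and their messages were called in opposite directions. Ercc1 was at 26.6 and 23.1 CPM in the ezrin libraries and 67.0 CPM in IgG. Both ezrin libraries lay far below IgG, and the message was 2.69-fold lower (log2 fold -1.43, SE 0.24, edgeR adjusted p = 8.82e-08). Ercc4 was at 28.3 and 19.3 CPM against 13.6 CPM. Both were above IgG, with a wide gap between them (log2 fold 0.81, SE 0.28, edgeR adjusted p = 0.0132), and DESeq2 did not call it (adjusted p = 0.13). Ercc1 (chromosome 7, 19344067 to 19356524, GRCm38) overlaps Cd3eap by 518 bases in RefSeq coordinates, and Cd3eap was not called (log2 fold 0.33). Of 14 members that overlap a RefSeq gene with at least 10 counts over ezrin replicate 1 and IgG, 7 were higher and 2 lower. Over all 50 members 26 were higher and 2 lower, so both lower members were among the 14. Of all genes tested, 19.0% were higher and 17.4% lower. The 7 higher members with such an overlap were Trp53bp1, Rad54l, Xrcc6, Lig3, Msh6, Fanca and Fanci. Trp53bp1 overlaps Map1a by 6765 bases and Tubgcp4 by 3936, and Fanca overlaps Zfp276 by 4258. The part of overlaps in the calls was not tested. Of 16 further genes of the pathway, 3 were higher (18.75%, beside 19.0% of all genes) and none lower. The higher genes were Xab2 (1.72), which binds XPA and also acts in splicing, and the TFIIH subunits Gtf2h4 (0.86) and Cdk7 (0.77).

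A longer list took in further genes of the same pathways and of translesion synthesis. Of 127 such genes tested, 33 were higher (26.0%) and 6 lower (4.72%), with a median log2 fold of 0.29. Of 13 genes of translesion synthesis and direct reversal, 2 were higher (15.4%, beside 19.0% of all genes) and none lower. The higher genes were the bypass polymerases Polh (1.14) and Polk (1.08). Whether the members and the longer list differ was not tested, and both lists were drawn up with earlier results of these data known.

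The ezrin libraries differed from each other by a median of 0.21 on the log2 scale over the members, compared with 0.23 over all genes with a count in both. Ezrin replicate 2 held the larger value for 29 members and replicate 1 for 21, beside 6191 and 6159 of all genes with a count in both. All 8 members of base excision repair had the larger value in replicate 1, and all 5 of end joining in replicate 2. Some of these gaps were small: Parp1 was at 212 and 209 CPM and Xrcc6 at 85.4 and 86.9 CPM. Whether the replicates differ by pathway was not tested. Ddb2 was furthest towards replicate 1 (log2 of replicate 2 over replicate 1, -0.96) and Chek1 furthest towards replicate 2 (0.56). Across the members this ratio and log2 gene length had a correlation of r = 0.40 (rho = 0.38, n = 50 genes of the same 2 libraries), while over all genes r was 0.13.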

How the data were processed

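RNA from 2 ezrin and 1 IgG immunoprecipitates was sequenced, with 10124580 to 19676595 counts per library. Reads were mapped to GRCm38 by the submitters' processing notes. Aligner, counter, annotation, strand setting and the handling of shared reads: not given in the sources used here. For each gene symbol the authors deposited raw counts and, in other files, RPKM (counts per kilobase of gene and per library size). All 50 members matched RefSeq genes of GRCm38.p6. Gene length came from count over RPKM, scaled on short RNA genes of known length.

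The test was edgeR 4.0.16 (R 4.3.3) on the counts, with quasi-likelihood fit, TMM scaling, filterByExpr by group and Benjamini-Hochberg adjustment over 12478 genes at 0.05. With 1 residual degree of freedom and infinite prior degrees of freedom, the spread was pooled over genes, and IgG is assumed to vary like the ezrin libraries. SE is the log2 fold over the square root of F. CPM are scaled by TMM, except for marker sums, which use library totals. RPKM are as deposited, without TMM, so gaps in RPKM between the groups differ from the folds of the fit. On simulated counts for this comparison (12478 genes, changes placed only in genes averaging 50 or more counts), 68.4% of 2-fold and 100.0% of 4-fold higher genes were recovered, and 60.8% and 95.2% of those lowered as much. The simulation changed far fewer genes than the 36.4% called in the data. It also drew IgG with the spread found in the ezrin libraries, so recovery in the data may differ. Alternatives used DESeq2 1.42.0 and limma 3.58.1.

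The members, pathways and the longer list were chosen with earlier results of these data known. Full values are given for members called with a log2 fold of at least 1 either way and for the most abundant member of each pathway per length. Of the longer list, called genes are named. Those with a log2 fold below 1 in size, and the members' partners and overlapping genes, were added after values were seen. Sequences were not used here.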

Additional observations from a re-analysis of the deposited data

How the results depend on the processing

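The 26 higher members ranged from 21 (DESeq2) to 30 (limma on log2 of RPKM + 1 or + 0.1) over 9 alternatives with a test, and 21 of them were called under all 9 that tested them. Chek2, Xrcc5, Lig4, Ercc4 and Xpc lost the call with DESeq2, which left 2 of 5 higher in end joining and 3 of 10 in nucleotide excision repair. With RPKM, 1 member (Ercc1) was lower instead of 2. Except for the protein-coding fit, the share of all genes called was not set beside these counts. A shift common to all genes therefore cannot be told apart in them. With RPKM + 1 the median log2 fold over all genes was 0.22. The median of 0.76 became 0.86 with no filter, 0.71 at a mean of at least 10 CPM, 0.88 with library size as the only scaling (all genes 0.10), 0.73 after cyclic loess, 0.80 with a trend on gene length subtracted and 1.10 with RPKM + 0.1, which moved all genes to 0.34. Without ezrin replicate 1 it was 0.72 and without replicate 2 it was 0.65, each against 1 library with no test. In the longer list, 33 higher genes became 19 with DESeq2 and 52 and 55 with RPKM + 1 and + 0.1, and 6 lower genes became 12 at a mean of at least 10 CPM, 3 with DESeq2 and 1 with each RPKM scale. A fit on protein-coding genes, added after seeing the data, gave 26 and 2.

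Members that changed sign under an alternative with a test were not called either way. With RPKM + 1 and + 0.1 they were Brca2 (0.13, 0.23), Bard1 (0.29, 0.36), Rad52 (0.10, 0.19), Fancm (0.058, 0.093), Ercc6 (0.15, 0.31) and Xpa (0.15, 0.21). With no filter and with library size Bard1 was 0.069 and 0.10 and Ercc6 0.049 and 0.076, and Pms2 was -0.056 at a mean of at least 10 CPM. Among settings with no test, Brca2 (0.087), Bard1 (0.013), Ercc6 (0.046) and Ddb2 (-0.035) changed sign without ezrin replicate 1, Wrn (-0.021) without replicate 2, and Brca2 (0.085) and Ercc6 (0.15) with the length trend subtracted. The cause was not tested. No paired analysis was possible because the groups share only replicate number 1.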
